A study of Mus musculus with 9 samples.

Results

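The genes described here are the matrix metalloproteases (MMPs), the ADAMTS proteases and the tissue inhibitors of metalloproteases (TIMPs). They were taken by symbol from the deposited gene table, as every row named Mmp or Adamts with a number, or Timp1 to Timp4. That gave 46 of 24493 genes: 23 MMPs, 19 ADAMTS genes and 4 TIMPs. The cells are a mouse pancreatic tumor model with the genetic background C57BL/6, cultured in DMEM plus 10% FBS without treatment, and total RNA was sequenced. The 9 libraries fall into 3 of the derived line escape e2, 3 of the derived line escape e1 and 3 of the parental line, and the series calls the derived cells resistant to immunotherapy. The labels do not say whether an escape line is 1 clone, what therapy was used, or whether a group's libraries stem from separate cultures. The p-values therefore cover no more than the spread among these libraries. Expression is in TPM, which scales reads by transcript length and by the library total. Depth per library cannot be read from it and is unknown, and "listed at 0" is all that is said of a gene with a value of 0.

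MMPs are zinc-dependent proteases that cut collagens, proteoglycans and other matrix proteins. Most are secreted, and a subset is anchored in the plasma membrane. They are made as inactive precursors, and Mmp14, the membrane-bound MT1-MMP, activates the precursor of Mmp2 at the cell surface in a complex that needs Timp2. ADAMTS proteases are secreted relatives with thrombospondin repeats that cleave proteoglycans such as versican and aggrecan or trim procollagens. TIMPs bind the active site of these enzymes and block it, and Timp3 also blocks several ADAM and ADAMTS proteases. In pancreatic tumors, matrix proteases are made by cancer cells, fibroblasts and infiltrating leukocytes.

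Of the 46 genes, 23 reached 1 TPM in 3 or more libraries and were tested: 11 MMPs, 9 ADAMTS genes and 3 TIMPs. Means were at 1 TPM or more in all 3 groups for 8 of them: Timp1, Timp2, Timp3, Mmp14, Mmp11, Mmp28, Adamts1 and Adamts10. The other 15 passed the filter only through the groups in which they are high, 6 of them through escape e2 alone, 2 through escape e1 alone, 4 through parental cells alone and 3 through both escape lines. Their place in the tested set therefore depended on a difference, and counts of calls among the 23 are descriptions. In escape e2 against parental cells, 16 of the 23 were called higher and 5 lower, at an adjusted p under 0.05 over all 12769 genes tested. Of all tested genes, 73.5% were called in that comparison, 40.8% higher and 32.7% lower. In escape e1 against parental cells, 11 were higher and 6 lower, where 70.6% of all tested genes were called, 35.7% higher and 34.9% lower. In escape e2 against escape e1, 14 were higher and 5 lower, where 70.3% of all tested genes were called, 40.6% higher and 29.7% lower. The median log2 fold changes of the 23 in these comparisons, in the same order, were 1.10, 0.34 and 0.48, beside medians over all tested genes of 0.07, 0.02 and 0.09. Every fold change given is a difference of log2(TPM + 1) with its SE, a scale on which changes of barely expressed genes are understated. Adjusted p-values come from two-sided limma tests, and means are given with SD over n = 3 libraries. Both comparisons with parental cells use the same 3 parental libraries.

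**Figure D1:**
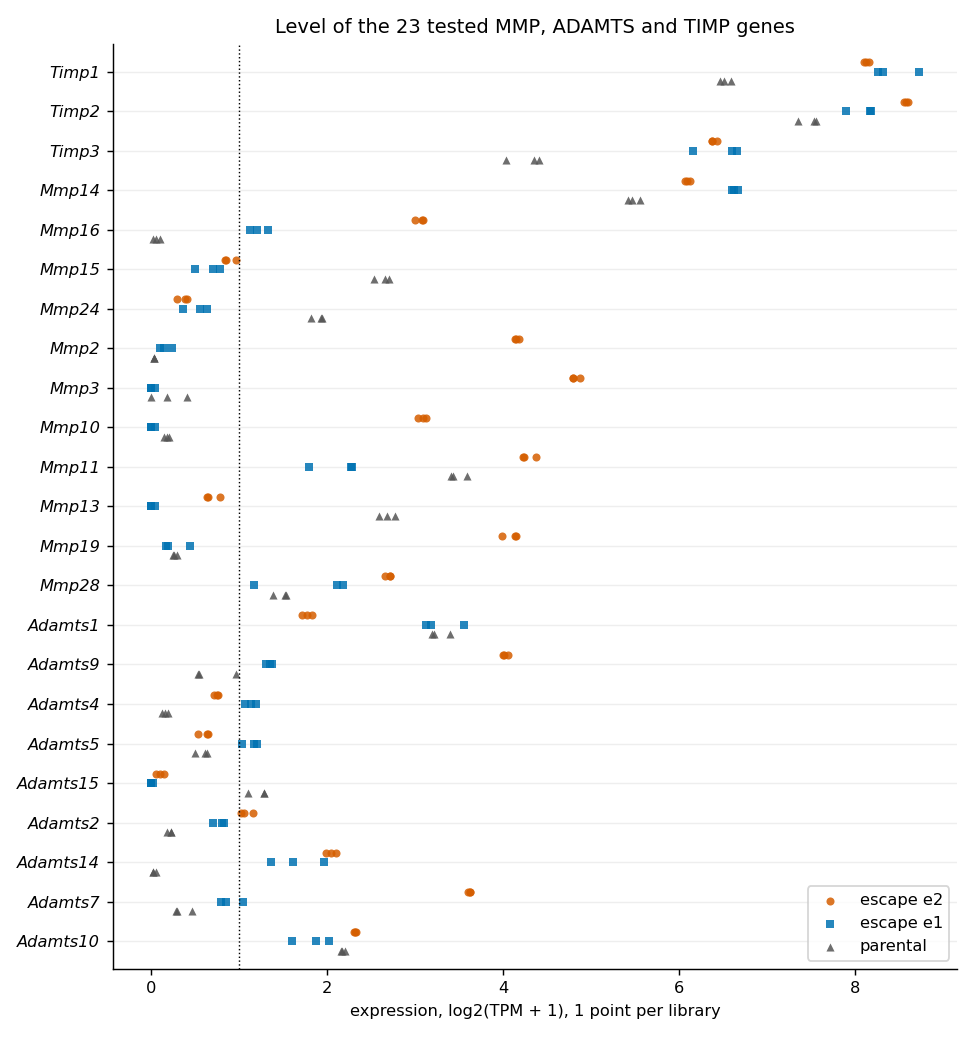
Expression of the 23 tested genes as log2(TPM + 1) on the horizontal axis, with 1 point per library and the groups offset within each row. The dotted line marks 1 TPM. Timp1, Timp2, Timp3 and Mmp14 stand highest in all 3 groups, while Mmp2, Mmp3, Mmp10 and Mmp19 are above 1 TPM in escape e2 libraries alone.

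Library 1 of escape e1 stood apart from the other libraries of its group. The SD of log2 differences over tested genes was 0.381 between it and each of the others, and 0.241 between libraries 2 and 3. In parental cells these values were 0.290 and 0.302 for library 1 and 0.230 for libraries 2 and 3, and in escape e2 they ran from 0.242 to 0.255. The summed level of 6 epithelial markers (Epcam, Cdh1, Krt7, Krt8, Krt18 and Krt19) ran from 1675 to 1735 TPM in escape e2, from 1164 to 1207 TPM in escape e1 and from 8044 to 9324 TPM in parental cells. Each of the 6 was called lower in both escape lines. Of 8 fibroblast markers, the sum ran from 245 to 256 TPM in escape e2, from 234 to 255 TPM in escape e1 and from 0.680 to 0.994 TPM in parental cells, with Lum listed at 0 in all 9 libraries. The sum of 10 leukocyte markers ran from 11.8 to 17.1 TPM in escape e2, from 3.0 to 4.17 TPM in escape e1 and from 3.36 to 4.65 TPM in parental cells. Of these, Ptprc, the pan-leukocyte marker, did not exceed 0.110 TPM in any library, and Elane was listed at 0 in all 9. The sum of 5 endothelial markers did not exceed 0.885 TPM in any library. In bulk RNA, fewer cells of a type and less RNA per cell cannot be told apart.

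The 3 expressed inhibitors were each higher in both escape lines than in parental cells. Timp1 and Timp2 were the most abundant genes of the set by mean in each group, and Timp3 averaged above Mmp14 in escape e2 and below it in escape e1 and parental cells. Timp1, a secreted inhibitor of most soluble MMPs, lies on chromosome X (20870166 to 20874737, GRCm38.p6). It stood at 284, 278 and 273 TPM in escape e2, at 423, 318 and 306 TPM in escape e1, and at 87.5, 95.2 and 90.5 TPM in parental cells. All escape libraries lay above all parental libraries, and library 1 of escape e1 was the highest. The log2 fold change was 1.60 ± 0.11 in escape e2 (adjusted p = 6.6e-07) and 1.91 ± 0.11 in escape e1 (adjusted p = 2.14e-07). Between the lines Timp1 was lower in escape e2 by -0.31 ± 0.11 (adjusted p = 0.026), a call that was lost without any 1 of the 3 escape e2 libraries (adjusted p from 0.0536 to 0.0716) and with these 2 groups only (0.0604). Without library 1 of escape e1 the difference was -0.17.

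Timp2, on chromosome 11 (118301061 to 118355411), which both inhibits MMPs and takes part in the activation of Mmp2, had values of 389, 377 and 382 TPM in escape e2, 238, 289 and 287 TPM in escape e1, and 162, 188 and 185 TPM in parental cells. The 3 groups did not overlap. Timp2 rose by 1.10 ± 0.08 in escape e2 and by 0.60 ± 0.08 in escape e1 (adjusted p = 1.66e-06 and 0.000133), and was higher in escape e2 than in escape e1 by 0.50 ± 0.08 (adjusted p = 0.000486). Timp3, on chromosome 10 (86300412 to 86349505), is an inhibitor that stays bound to the matrix. It stood at 85.5, 82.2 and 81.7 TPM in escape e2, at 70.2, 99.9 and 96.3 TPM in escape e1, and at 15.4, 20.2 and 19.5 TPM in parental cells. The escape lines overlapped each other and lay above the parental libraries. The fold changes against parental cells were 2.13 ± 0.14 in escape e2 and 2.21 ± 0.14 in escape e1 (adjusted p = 5.06e-07 and 4.41e-07). The difference between the lines was -0.08, with a 95% interval from -0.39 to 0.23. Exons of Timp3 share 1733 bases with the opposite-strand gene Syn3, which did not exceed 0.270 TPM in any library. Timp4, the remaining inhibitor, did not exceed 0.0263 TPM and was listed at 0 in all escape e1 and parental libraries.

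Among MMPs, Mmp14 was the most abundant member in every library. The gene encodes MT1-MMP, a transmembrane collagenase, and lies on chromosome 14 (54431598 to 54442456). Its level was 67.3, 68.8 and 65.9 TPM in escape e2, 101, 95.9 and 98.1 TPM in escape e1, and 46.1, 41.8 and 43.1 TPM in parental cells. The groups did not overlap, with escape e1 highest. Mmp14 rose by 0.61 ± 0.05 in escape e2 and by 1.15 ± 0.05 in escape e1 (adjusted p = 3.81e-06 and 4.92e-08), and was lower in escape e2 than in escape e1 by -0.54 ± 0.05 (adjusted p = 1.29e-05).

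The other transmembrane MMPs differed in direction. Mmp16 (MT3-MMP) on chromosome 4 (17853072 to 18117479) stood at 7.47, 7.52 and 7.0 TPM in escape e2, at 1.18, 1.52 and 1.31 TPM in escape e1, and at 0.0389, 0.0750 and 0.0158 TPM in parental cells. It was higher in both escape lines, by 3.0 ± 0.08 and 1.16 ± 0.08, and higher in escape e2 than in escape e1 by 1.84 ± 0.08 (adjusted p = 6.56e-08). Mmp15 (MT2-MMP) and Mmp24 (MT5-MMP) were highest in parental cells. Mmp15 stood at 0.785, 0.810 and 0.957 TPM in escape e2, at 0.412, 0.633 and 0.725 TPM in escape e1, and at 4.8, 5.51 and 5.29 TPM in parental cells, a fall of -1.74 ± 0.10 in escape e2 and -1.97 ± 0.10 in escape e1. Mmp24 stood at 0.230, 0.332 and 0.308 TPM in escape e2, at 0.290, 0.471 and 0.549 TPM in escape e1, and at 2.52, 2.84 and 2.82 TPM in parental cells, with fold changes of -1.53 ± 0.09 and -1.38 ± 0.09. For neither did the difference between the escape lines pass (Mmp15 0.22, 95% interval 0.01 to 0.44, adjusted p = 0.061; Mmp24 -0.15, interval -0.35 to 0.05, adjusted p = 0.149). Mmp15 passed under 6 of the alternatives tried, with adjusted p from 0.035 to 0.0499, and Mmp24 with the rlog table and without escape e1 library 1 (0.042 and 0.032). Mmp24 shares 637 exonic bases with the opposite-strand gene BC029722, whose mean was 62.2 TPM in escape e2, 77.8 TPM in escape e1 and 82.2 TPM in parental cells.

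A set of secreted MMPs was high in escape e2 alone. Mmp2, gelatinase A, which degrades denatured collagen and basement membrane collagen, lies on chromosome 8 (92827290 to 92853421). It stood at 16.5, 16.7 and 17.1 TPM in escape e2, at 0.179, 0.107 and 0.0760 TPM in escape e1, and at 0.0203, 0.0196 and 0.0241 TPM in parental cells. No group overlapped another, and the escape e2 libraries stood far above the rest. The fold change was 4.12 ± 0.07 against parental cells and 3.99 ± 0.07 against escape e1 (adjusted p = 8.03e-11 and 3.55e-10). The change in escape e1 was 0.13 ± 0.07 and did not pass (adjusted p = 0.115), although it passed with a pseudocount of 0.1 (0.84, adjusted p = 0.00308), with the rlog table (0.61, adjusted p = 0.000999) and without trend and robustness (0.0483). Mmp19, a secreted MMP of basement membrane substrates on chromosome 10 (128790910 to 128800827), stood at 16.6, 14.8 and 16.7 TPM in escape e2, at 0.140, 0.126 and 0.354 TPM in escape e1, and at 0.225, 0.201 and 0.191 TPM in parental cells. Escape e1 overlapped the parental libraries and escape e2 lay above both. Mmp19 was higher in escape e2 by 3.82 ± 0.09 against parental cells and by 3.83 ± 0.09 against escape e1 (adjusted p = 7.06e-10 and 2.07e-09), while the difference between escape e1 and parental cells lay within a 95% interval from -0.21 to 0.20. Exons of Mmp19 share 789 bases with the opposite-strand gene Tmem198b, which averaged 11.1 TPM in escape e2, 9.21 TPM in escape e1 and 4.53 TPM in parental cells.

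Marker genes of other cell types were set beside these values. Dcn and Pdpn, fibroblast markers, averaged 35.5 and 70.3 TPM in escape e2, did not exceed 0.227 TPM in escape e1 and did not exceed 0.137 TPM in parental cells. Col1a2 averaged 82.0 TPM in escape e2 and 116 TPM in escape e1, and was listed at 0 in the parental libraries. S100a8, a neutrophil marker, stood at 7.94, 9.71 and 5.21 TPM in escape e2, was listed at 0 in escape e1 and stood at 1.13, 0.270 and 0.334 TPM in parental cells. Its partner S100a9 was listed at 0 in both escape lines and stood at 0.525, 0.504 and 0.839 TPM in parental cells. Csf1r, of the same leukocyte list, did not exceed 0.139 TPM in either escape line. In parental cells Csf1r stood higher, at 0.905, 0.966 and 0.604 TPM. Adgre1, a macrophage marker, did not exceed 0.0239 TPM in any library. Lyz2, a lysozyme of myeloid cells, stood at 1.34, 1.51 and 0.914 TPM in escape e2 and was listed at 0 in escape e1 and parental cells. Cd68, a lysosomal protein abundant in macrophages, averaged 5.43 TPM in escape e2, 3.41 TPM in escape e1 and 1.72 TPM in parental cells, and was higher in both lines (1.24 ± 0.11 and 0.69 ± 0.11). The part of other cell types in the levels of Mmp2 and Mmp19 was not tested.

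Mmp3, Mmp10 and Mmp13 belong to a cluster of MMP genes on chromosome 9. Mmp3 and Mmp10 encode stromelysins 1 and 2, which cut proteoglycans and fibronectin and activate other MMP precursors, and Mmp13 encodes collagenase 3, an interstitial collagenase. The cluster spans 427 kb (7272514 to 7699585, GRCm38.p6) and holds 10 MMP genes with 0 other protein-coding genes in the RefSeq table, in the order Mmp13, Mmp12, Mmp1b, Mmp3, Mmp1a, Mmp10, Mmp8, Mmp27, Mmp20 and Mmp7. MMP promoters of this cluster are known for a site of AP-1, the dimer of Fos and Jun proteins, close to a TATA box. The 120 bases before the annotated RefSeq start are shown for Mmp3 (chr9:7445702-7445821), Mmp10 (chr9:7502222-7502341) and Mmp13 (chr9:7272394-7272513), which passed the filter, and for Mmp1a (chr9:7464021-7464140) and Mmp7 (chr9:7691970-7692089), which did not, so that the same element can be compared between genes above and below it. All 5 are on the plus strand of GRCm38.p6, and capitals mark TGAGTCA or its reverse complement TGACTCA, and TATAAA.

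Mmp3: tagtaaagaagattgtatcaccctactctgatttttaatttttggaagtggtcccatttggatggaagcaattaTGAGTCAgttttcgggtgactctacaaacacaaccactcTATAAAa

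Mmp10: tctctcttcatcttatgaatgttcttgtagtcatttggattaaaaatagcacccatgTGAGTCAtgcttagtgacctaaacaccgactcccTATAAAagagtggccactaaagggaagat

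Mmp13: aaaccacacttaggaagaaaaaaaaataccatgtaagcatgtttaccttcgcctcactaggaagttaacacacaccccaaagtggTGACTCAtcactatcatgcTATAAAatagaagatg

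Mmp1a: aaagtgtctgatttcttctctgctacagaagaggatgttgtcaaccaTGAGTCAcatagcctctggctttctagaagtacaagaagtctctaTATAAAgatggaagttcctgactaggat

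Mmp7: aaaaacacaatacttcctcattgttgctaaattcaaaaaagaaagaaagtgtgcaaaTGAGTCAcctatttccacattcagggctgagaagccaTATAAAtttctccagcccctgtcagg

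In these windows the heptamer begins 46 bases before the start in Mmp3, 63 in Mmp10, 35 in Mmp13, 73 in Mmp1a and 63 in Mmp7, and TATAAA follows it in each. The search covered both strands of the heptamer and the gene's own strand for TATAAA, which do not overlap here, in windows from 250 bases before to 50 after each annotated start. RefSeq windows were matched for 32 of the 46 genes, including all 10 of the cluster. The heptamer was found in 7 of these 10, namely the 5 above with Mmp12 and Mmp1b, and in 0 of the 22 matched genes outside the cluster. Genes without a matched window were not searched. They include Mmp2, Mmp9, Mmp16, Mmp19 and Adamts7, which are highest in escape e2. Of all 27025 genes with a window, 5.95% held the heptamer and 0.736% held it with TATAAA in 1 window, as those 7 genes did. In Mmp12, however, TATAAA begins at base 5 after the annotated start and not before it. A match describes letters in the window and not a bound site.

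Genes of the cluster that share this element differed in level. Mmp3 stood at 28.2, 26.7 and 26.7 TPM in escape e2, at 0.0320, 0 and 0 TPM in escape e1, and at 0.327, 0 and 0.130 TPM in parental cells. Mmp10 stood at 7.69, 7.51 and 7.17 TPM in escape e2, at 0.0334, 0 and 0 TPM in escape e1, and at 0.152, 0.110 and 0.135 TPM in parental cells. Escape e2 lay above both other groups for either gene. Mmp3 was higher in escape e2 by 4.62 ± 0.10 against parental cells and by 4.8 ± 0.10 against escape e1 (adjusted p = 4.38e-10 and 9.7e-10). Mmp10 was higher in escape e2 by 2.90 ± 0.07 and 3.06 ± 0.07 in the same comparisons (adjusted p = 5.18e-10 and 1.08e-09). In escape e1 neither passed against parental cells (Mmp3 -0.18, 95% interval -0.41 to 0.05; Mmp10 -0.16, interval -0.31 to -0.01, adjusted p = 0.0523). That call depended on the processing, since Mmp3 passed without parental library 2 (-0.28, adjusted p = 0.0318) and Mmp10 passed under 5 alternatives, with adjusted p from 0.000501 to 0.0405.

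Mmp13 changed in escape e2 against parental cells in the opposite direction to Mmp3 and Mmp10. It stood at 0.567, 0.556 and 0.723 TPM in escape e2, at 0, 0 and 0.0294 TPM in escape e1, and at 5.02, 5.39 and 5.83 TPM in parental cells. The 3 groups did not overlap, with parental cells highest. The fold changes were -1.99 ± 0.08 in escape e2 and -2.66 ± 0.08 in escape e1 (adjusted p = 1.69e-08 and 2.61e-09), and Mmp13 was higher in escape e2 than in escape e1 by 0.68 ± 0.08 (adjusted p = 4.38e-05). The 7 other genes of the cluster were below the filter. Mmp7, matrilysin, was listed at 0 in all 9 libraries, and Mmp12, macrophage elastase, did not exceed 0.0939 TPM. Mmp1a and Mmp1b are close copies of each other, so that reads could be split between them. Both were listed at 0 in all escape e1 and parental libraries. In escape e2, Mmp1a stood at 0.0668, 0.159 and 0.0784 TPM and Mmp1b at 0.136, 0.0402 and 0.318 TPM. Mmp8, Mmp20 and Mmp27 did not exceed 0.0643 TPM.

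**Figure D2:**
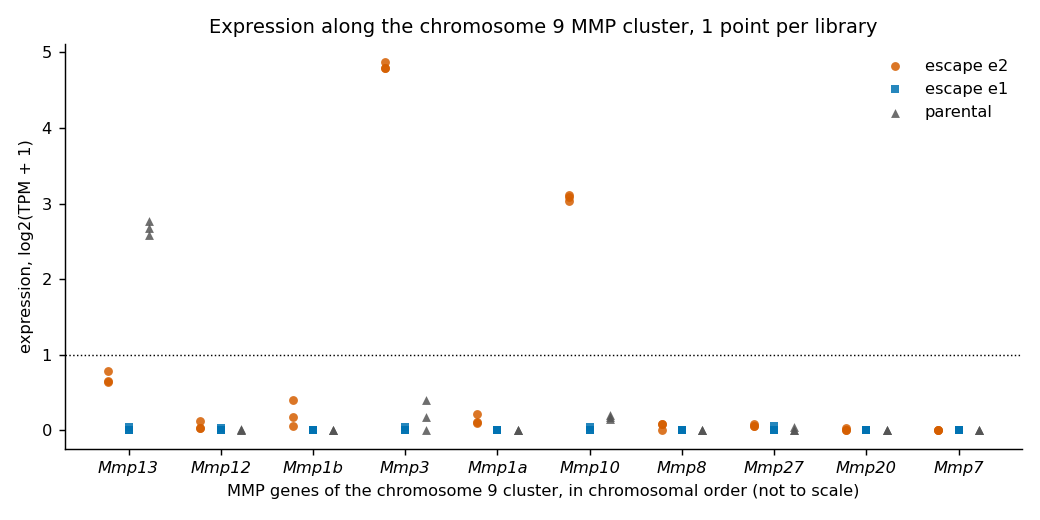
Expression as log2(TPM + 1) of the 10 MMP genes of the chromosome 9 cluster, in chromosomal order and not to scale, with 1 point per library. The dotted line marks 1 TPM. Mmp3 and Mmp10 are above it in escape e2 and Mmp13 in parental cells, and the other 7 genes are below it in every library.

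Mmp11, stromelysin-3, was the member that moved in opposite directions in the escape lines. It is a secreted MMP typical of tumor stroma, activated inside the cell by furin, and lies on chromosome 10 (75923221 to 75932502). It stood at 17.7, 19.8 and 17.8 TPM in escape e2, at 2.46, 3.82 and 3.85 TPM in escape e1, and at 11, 9.82 and 9.65 TPM in parental cells. The 3 groups did not overlap. Mmp11 rose by 0.80 ± 0.13 in escape e2 and fell by 1.36 ± 0.13 in escape e1 (adjusted p = 0.00033 and 8.48e-06), and the lines differed by 2.17 ± 0.13 (adjusted p = 4.84e-07). Exons of Mmp11 share 155 bases with the opposite-strand gene Chchd10. That gene averaged 57.4 TPM in escape e2, 0.737 TPM in escape e1 and 10.8 TPM in parental cells, the same order of groups as Mmp11. No source used here states whether strand was used in the counting, and the part of reads from Chchd10 in the level of Mmp11 was not tested.

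Mmp28, epilysin, a secreted MMP on chromosome 11 (83440768 to 83463040), stood at 5.57, 5.56 and 5.33 TPM in escape e2, at 1.25, 3.31 and 3.52 TPM in escape e1, and at 1.87, 1.90 and 1.61 TPM in parental cells. It was higher in escape e2 by 1.22 ± 0.23 against parental cells and by 0.88 ± 0.23 against escape e1 (adjusted p = 0.00084 and 0.00615). Library 1 of escape e1 lay below all parental libraries and the other escape e1 libraries above them. The fold change in escape e1 was 0.34 ± 0.23 and did not pass (adjusted p = 0.206), and without library 1 it was 0.66 and passed (adjusted p = 3.06e-05). Without that library the difference of escape e2 over escape e1 was 0.56, which still passed (adjusted p = 0.000115). Mmp28 shares 466 exonic bases with the opposite-strand gene 1700020L24Rik, which averaged 4.16 TPM in escape e2, 2.41 TPM in escape e1 and 2.29 TPM in parental cells, and its part in these values was not tested. Below the filter, Mmp9, gelatinase B, stood at 0.923, 0.926 and 1.01 TPM in escape e2, at 0.104, 0.0515 and 0.0734 TPM in escape e1, and at 0, 0.0189 and 0 TPM in parental cells. Mmp23 stood at 0.689, 1.05 and 1.17 TPM in escape e2, did not exceed 0.278 TPM in escape e1 and did not exceed 0.141 TPM in parental cells. Of the GPI-anchored MMPs, Mmp17 did not exceed 0.458 TPM and Mmp25 did not exceed 0.115 TPM, and Mmp21 was listed at 0 throughout.

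Among ADAMTS proteases that cleave proteoglycans, members moved apart. Adamts9, which cleaves versican and aggrecan, lies on chromosome 6 (92772699 to 92944450). It stood at 15.1, 15.7 and 14.9 TPM in escape e2, at 1.46, 1.59 and 1.55 TPM in escape e1, and at 0.95, 0.445 and 0.453 TPM in parental cells. The groups did not overlap, and escape e2 was far above both others. Adamts9 rose by 3.34 ± 0.12 in escape e2 and by 0.66 ± 0.12 in escape e1 (adjusted p = 6.56e-09 and 0.000593), and was higher in escape e2 than in escape e1 by 2.68 ± 0.12 (adjusted p = 6.56e-08). It shares exonic bases with 2 opposite-strand genes that were not analysed here. Adamts1, on chromosome 16 (85793827 to 85803113), a versican-cleaving protease, was the most abundant ADAMTS gene in escape e1 and parental cells. Its level was 2.43, 2.54 and 2.28 TPM in escape e2, 10.8, 7.72 and 8.10 TPM in escape e1, and 9.56, 8.31 and 8.14 TPM in parental cells. Escape e2 lay below both other groups, which overlapped. Adamts1 was lower in escape e2 by -1.50 ± 0.12 against parental cells and by -1.52 ± 0.12 against escape e1 (adjusted p = 2.07e-06 and 2.75e-06), while the difference between escape e1 and parental cells had a 95% interval from -0.25 to 0.28.

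Adamts4 and Adamts5, the aggrecanases, were low in all groups. Adamts4 averaged 0.669 ± 0.0227 TPM in escape e2, 1.19 ± 0.0911 TPM in escape e1 and 0.118 ± 0.0260 TPM in parental cells, and was higher in both escape lines (0.58 ± 0.07 and 0.97 ± 0.07). Adamts5 averaged 0.520 ± 0.0681 TPM in escape e2, 1.20 ± 0.131 TPM in escape e1 and 0.495 ± 0.0773 TPM in parental cells. It was higher in escape e1 than in parental cells by 0.56 ± 0.08 (adjusted p = 0.00017), and in escape e2 its difference from parental cells had a 95% interval from -0.16 to 0.20. Adamts15, another aggrecanase, stood at 0.107, 0.0380 and 0.0761 TPM in escape e2, at 0.0109, 0 and 0 TPM in escape e1, and at 1.14, 1.44 and 1.43 TPM in parental cells. Both escape lines lay below the parental libraries, with fold changes of -1.12 ± 0.08 and -1.22 ± 0.08 (adjusted p = 6.85e-07 and 4.26e-07). The escape e2 libraries lay above those of escape e1, a difference of 0.10 ± 0.08 that did not pass (adjusted p = 0.276), but that passed with a pseudocount of 0.1 (0.73, adjusted p = 0.0131) and with the rlog table (0.55, adjusted p = 0.00201).

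The procollagen N-propeptidases Adamts2 and Adamts14, which trim fibrillar procollagens so that fibrils can form, were higher in both escape lines. Adamts14, on chromosome 10 (61197112 to 61273419), stood at 3.13, 3.28 and 2.98 TPM in escape e2, at 2.91, 2.05 and 1.57 TPM in escape e1, and at 0.0365, 0.0119 and 0.0147 TPM in parental cells. Every escape library lay above every parental one. The fold changes were 2.02 ± 0.13 and 1.61 ± 0.13 (adjusted p = 6.29e-07 and 3.38e-06). The difference between the lines, 0.40 ± 0.13 (adjusted p = 0.023), was not called under 7 alternatives, with adjusted p from 0.0566 to 0.0788. These were median-ratio scaling, the rlog table, the 2 groups only, and leaving out libraries 1 or 2 of escape e2 or libraries 2 or 3 of escape e1. Adamts2 averaged 1.12 ± 0.108 TPM in escape e2, 0.720 ± 0.0783 TPM in escape e1 and 0.159 ± 0.0199 TPM in parental cells, and its fold changes were 0.87 ± 0.07 and 0.57 ± 0.07. Adamts3, of the same group, did not exceed 0.0486 TPM. The procollagen gene Col1a1, whose product they act on, was higher in both escape lines too, by 4.64 ± 0.14 in escape e2 and 6.16 ± 0.14 in escape e1.

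Adamts7, which cleaves cartilage oligomeric matrix protein, lies on chromosome 9 (90162904 to 90200102), apart from the MMP cluster. It stood at 11.3, 11.4 and 11.2 TPM in escape e2, at 0.730, 1.06 and 0.805 TPM in escape e1, and at 0.379, 0.229 and 0.221 TPM in parental cells. No groups overlapped, and escape e2 was highest. Adamts7 rose by 3.27 ± 0.09 in escape e2 and by 0.55 ± 0.09 in escape e1 (adjusted p = 1.5e-09 and 0.00041), and the lines differed by 2.72 ± 0.09 (adjusted p = 1.28e-08). It shares 122 exonic bases with the opposite-strand gene Tbc1d2b, whose level ran from 8.11 to 8.96 TPM over all libraries. Adamts10, which acts on fibrillin microfibrils, averaged 3.98 ± 0.0472 TPM in escape e2, 2.59 ± 0.518 TPM in escape e1 and 3.53 ± 0.0586 TPM in parental cells. It was lower in escape e1 than in parental cells, by -0.34 ± 0.10 (adjusted p = 0.0137), and did not pass in escape e2 (0.14, 95% interval -0.09 to 0.37). Of ADAMTS genes below the filter, Adamts6 averaged 0.946 ± 0.0251 TPM in escape e2, 0.932 ± 0.127 TPM in escape e1 and 0.371 ± 0.121 TPM in parental cells. Adamts8, Adamts12, Adamts13, Adamts16, Adamts17 and Adamts20 did not exceed 0.275 TPM, and Adamts18 and Adamts19 were listed at 0 in every library.

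**Figure D3:**
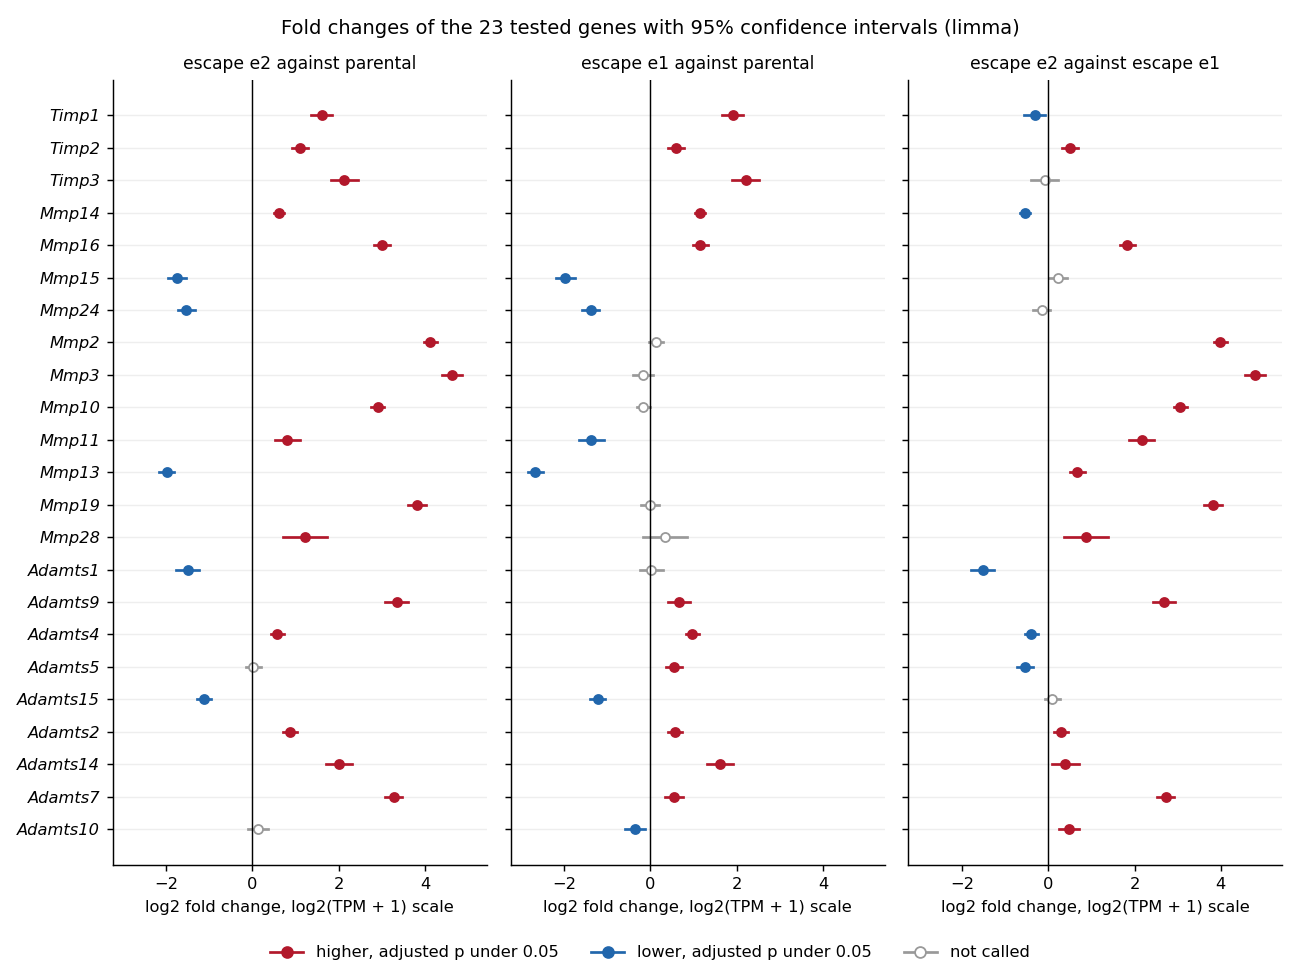
Differences of log2(TPM + 1), as log2 fold changes, for the 23 tested genes in the 3 comparisons, with 95% confidence intervals from limma. Filled red and blue points are called higher and lower, and open grey points are not called. The TIMPs lie to the right of 0 against parental cells in both escape lines, and Mmp2, Mmp3, Mmp10 and Mmp19 lie beyond 2.5 in escape e2 and within 0.5 of 0 in escape e1.

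Across the 23 tested genes, 6 were called higher in both escape lines and higher in escape e2 than in escape e1: Timp2, Mmp16, Adamts2, Adamts7, Adamts9 and Adamts14. A further 3, Timp1, Mmp14 and Adamts4, were higher in both lines and lower in escape e2 than in escape e1. Another 5, Mmp2, Mmp3, Mmp10, Mmp19 and Mmp28, were higher in escape e2 against both other groups and not called in escape e1 against parental cells. Mmp15, Mmp24, Adamts15 and Mmp13 were lower in both lines, and of these Mmp13 was called between the lines, while the other 3 were called there under some alternatives given above. The calls of Timp1 and Adamts14 between the lines were lost under some alternatives, also given above. How many of all tested genes show each joint pattern was not counted, so these counts only describe the set.

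Summing TPM within a library gave the makeup of each family, as a description without a test. The 23 MMP genes summed to 170.6 ± 1.54 TPM in escape e2, 107.6 ± 1.22 TPM in escape e1 and 69.8 ± 2.31 TPM in parental cells. Mmp14 made up 39.5 ± 0.511% of that sum in escape e2, 91.3 ± 2.32% in escape e1 and 62.5 ± 1.08% in parental cells. In escape e2 the remainder was spread mainly over the stromelysins Mmp3 and Mmp10 (34.6 ± 1.11 TPM), Mmp11 (18.4 ± 1.18 TPM), the gelatinases Mmp2 and Mmp9 (17.8 ± 0.360 TPM) and Mmp19 (16.1 ± 1.06 TPM). Mmp16 (7.33 ± 0.285 TPM) and Mmp28 (5.49 ± 0.135 TPM) came next. The 4 TIMPs summed to 744 ± 12.3 TPM in escape e2, 709 ± 20.8 TPM in escape e1 and 288 ± 19.8 TPM in parental cells. In each of the 9 libraries the TIMP sum exceeded the MMP sum. The ratio of the sums was 4.43, 4.29 and 4.36 in escape e2, 6.82, 6.63 and 6.33 in escape e1, and 3.66, 4.46 and 4.27 in parental cells. It was highest in escape e1, while escape e2 overlapped the parental libraries. These are ratios of transcripts and not of active protein. The 19 ADAMTS genes summed to 39.8 ± 0.658 TPM in escape e2, 20.4 ± 1.96 TPM in escape e1 and 15.8 ± 1.28 TPM in parental cells. 

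**Figure D4:**
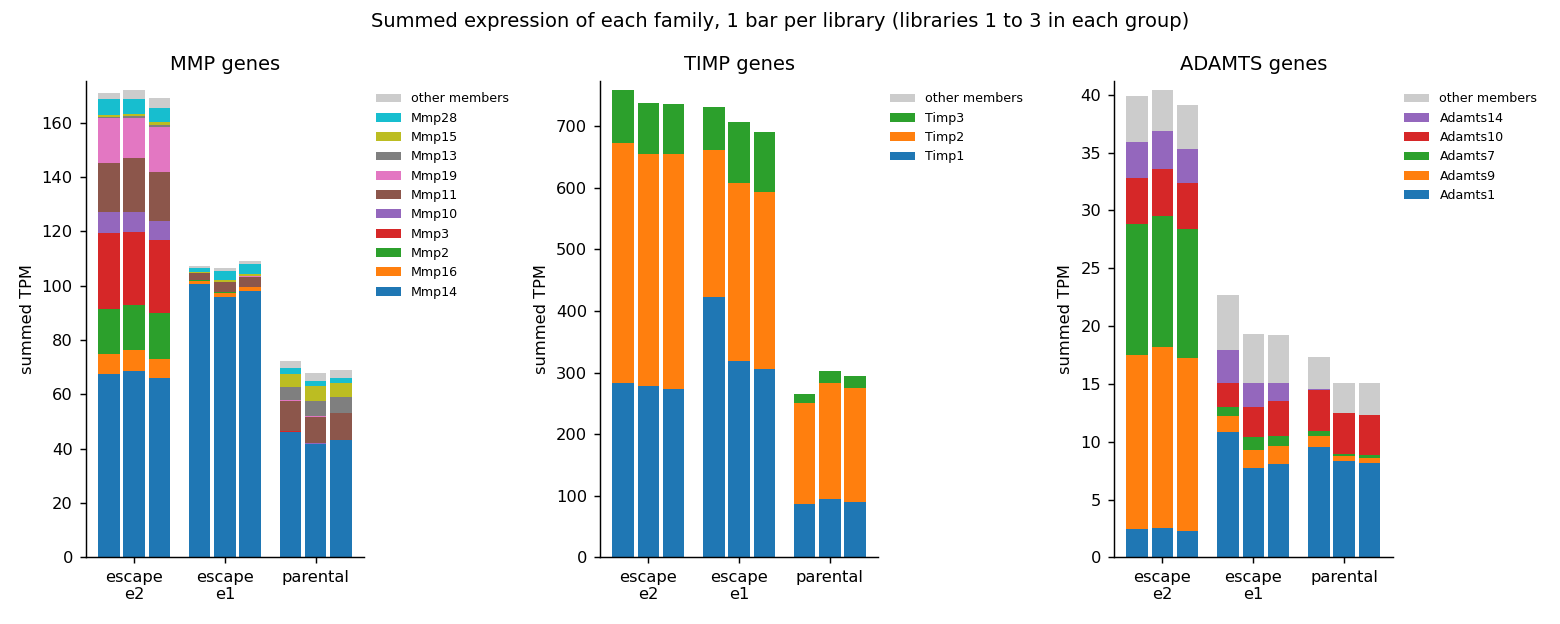
Summed TPM of the MMP, TIMP and ADAMTS genes, with 1 stacked bar per library and libraries 1 to 3 side by side in each group. Colors mark single genes, and grey holds the remaining members. Mmp14 fills most of the MMP bars of escape e1, whereas escape e2 bars also hold Mmp2, Mmp3, Mmp11 and Mmp19.

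Genes that act on or beside these proteases were taken from lists. In the list of MMP activation, docking, clearance and inhibition outside the TIMPs, 9 of 14 genes were tested. Of these, 7 were higher and 2 lower in escape e2 and 6 were higher and 2 lower in escape e1, both against parental cells, where 73.5% and 70.6% of all tested genes were called. Pcsk6, a furin-like convertase, stood at 1.01, 1.07 and 1.26 TPM in escape e2, at 0.502, 0.187 and 0.180 TPM in escape e1, and at 39.7, 39.8 and 38.5 TPM in parental cells. It was far lower in both escape lines (-4.26 ± 0.10 and -4.98 ± 0.10). Furin itself, which activates membrane-type MMPs and Mmp11, changed by -0.31 ± 0.06 and -0.59 ± 0.06. Lrp1, an endocytic receptor that clears MMP and TIMP complexes, was higher in both lines (3.30 ± 0.21 and 3.15 ± 0.21), as were Cd44, a surface dock of MMPs (1.48 ± 0.12 and 0.99 ± 0.12), and Reck, a membrane-anchored MMP inhibitor (0.72 ± 0.10 and 0.53 ± 0.10). Lcn2, which binds Mmp9, averaged 12.5 TPM in escape e2, was listed at 0 in escape e1 and averaged 0.128 TPM in parental cells.

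Of the 13 transcription factors listed as acting on MMP promoters, 7 were higher and 1 lower in escape e2, and 4 were higher and 2 lower in escape e1, against parental cells. These shares lie below the 73.5% and 70.6% of all tested genes called in those comparisons. Jun rose in both lines, to 73.8 ± 1.67 TPM in escape e2 and 59.7 ± 1.20 TPM in escape e1, against 17.0 ± 2.38 TPM in parental cells. Fos stood at 221, 213 and 220 TPM in escape e2, at 46.3, 53.6 and 50.5 TPM in escape e1, and at 23.9, 95.6 and 88.5 TPM in parental cells. It was higher in escape e2 by 1.87 ± 0.48 against parental cells and by 2.10 ± 0.48 against escape e1 (adjusted p = 0.00972 and 0.00597), and parental library 1 lay far below the other parental libraries. Etv1, an ETS factor, was higher in both lines (4.85 ± 0.14 and 2.45 ± 0.14), while Ets2 was lower (-1.10 ± 0.05 and -0.93 ± 0.05). Junb was lower in escape e1 (-1.31 ± 0.08), and in escape e2 its difference from parental cells was 0.01 ± 0.08 (adjusted p = 0.948).

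Of 9 membrane-bound ADAM proteases, 7 were tested, with 4 higher and 3 lower in each escape line against parental cells. Of all tested genes, 40.8% were higher and 32.7% lower in escape e2, and 35.7% higher and 34.9% lower in escape e1. Adam19 stood at 13.9, 14.5 and 13.7 TPM in escape e2, at 1.63, 1.14 and 1.46 TPM in escape e1, and did not exceed 0.0448 TPM in parental cells. Adam8 was lower in escape e2 (-1.08 ± 0.15) and higher in escape e1 (0.73 ± 0.15). Of 7 astacin proteases and procollagen enhancers, 5 were tested. Bmp1, which removes the other end of fibrillar procollagens, rose by 0.46 ± 0.06 in escape e2 and by 1.42 ± 0.06 in escape e1. Pcolce, its enhancer, averaged 925 ± 17.6 TPM in escape e2 and 401 ± 41.5 TPM in escape e1, against 18.4 ± 1.07 TPM in parental cells, whereas Pcolce2 was lower in both lines (-2.66 ± 0.12 and -0.67 ± 0.12). Of 7 proteoglycan substrates and link proteins, 2 were tested. Versican (Vcan) was higher in both lines, by 2.96 ± 0.10 and 2.05 ± 0.10, and aggrecan (Acan) was lower, by -2.14 ± 0.07 and -4.21 ± 0.07. Of 7 ADAMTS-like proteins, which lack a protease domain, 3 were tested, and Thsd4 was lower in both lines (-1.64 ± 0.13 and -2.58 ± 0.13). Adamtsl4 was higher in both lines (0.67 ± 0.21 and 0.64 ± 0.21), although escape e1 libraries overlapped parental ones. Adamtsl5 was lower in escape e1 (-1.22 ± 0.13) and not called in escape e2 (-0.29 ± 0.13).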

How the data were processed

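A commercial company made the 9 RNA libraries, 3 per group, per the labels' protocols. The authors deposited TPM per gene and library, and log2 values from the rlog transform. Salmon, DESeq2 and mm10 appear per the submitters' processing notes. Their versions, the annotation and any use of strand are not given in the sources. Since deposited TPM has the same total in each library, intervals from counting and limits of detection could not be computed.

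The filter of 1 TPM in 3 or more libraries left 12769 of 24493 genes. For log2(TPM + 1), limma 3.58.1 (R 4.3.3) estimated 3 group means, with trend and robust empirical Bayes, two-sided tests and Benjamini-Hochberg adjustment over all genes tested. The steps were tested on simulated data. The genes and lists were chosen with earlier results of these data known. Each gene of the set that passed the filter is named, and of other lists up to 3 called genes in each direction per comparison are eligible, of which the text names some. Genes quoted only beside a result, such as overlapping genes and markers, fall outside that rule, and so does Reck. Gene positions and promoters are from RefSeq GRCm38.p6, of the same build as mm10, matched by symbol, and exon overlaps from GENCODE M21. The alternatives tried were 0.1 as pseudocount, a filter at 5 TPM or none, 2 other scalings, the rlog table (26 names in it read as dates), the 2 groups compared only, the library number as a block, no trend or robustness, and leaving out each library.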

Additional observations from a re-analysis of the deposited data

Results flagged for a closer look

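Mmp11 was the only one of the 23 tested genes called in opposite directions in the escape lines against parental cells, with a called difference between the lines. The log2 fold change of escape e2 over escape e1 was 2.17 ± 0.13 (limma, adjusted p = 4.84e-07). All 3 escape e2 libraries lay above the parental libraries and all 3 escape e1 libraries below them. Both lines share the parental libraries, and the opposite-strand neighbour Chchd10 had the same order of groups.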

How the results depend on the processing

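Of 1218 values of single genes under alternatives, 1177 kept their direction and their side of the threshold. The 11 lost calls concern Timp1 and Adamts14 between the escape lines, and 20 values gained a call. Reversals of sign numbered 10, all in 4 results that were not called. For Adamts5 in escape e2 against parental cells these were -0.0105 with median-ratio scaling, -0.0163 with the rlog table and -0.0194 without parental replicate 2 (range over left-out libraries -0.0194 to 0.0612). For Adamts1 in escape e1 against parental cells they were -0.12, -0.01 and -0.02, without escape e1 replicate 1 and parental replicates 2 and 3 (range -0.12 to 0.10). For Mmp19 in escape e1 they were 0.03, 0.0431 and 0.01, without escape e1 replicates 1 and 2 and parental replicate 1 (range -0.0902 to 0.0431), and for Timp3 between the lines 0.0148 without escape e1 replicate 2 (range -0.24 to 0.0148). The cause was not tested. With the filter of 5 TPM, 15 genes of the set were tested and 9 called in escape e1 against parental cells, against 17 of 23, since fewer genes were tested. Of all 10461 genes tested at that filter, 7548 were called in that comparison. With no filter, 42 genes were tested and 29 were called in escape e2, 20 in escape e1 and 27 between the lines. Of all 19340 genes tested without a filter, 10908, 10152 and 10038 were called in these comparisons. Leaving out 1 library gave 21 calls each time in escape e2, 17 to 18 in escape e1 and 17 to 20 between the lines. Over all 12769 tested genes, calls then ran from 8683 to 10246, from 8348 to 9695 and from 8198 to 9331. Correlations of deviations from group means ran from -0.130 to 0.0499 between same-numbered libraries of 2 groups. Between differently numbered libraries they ran from -0.161 to 0.127. With 3 libraries per group, these values cannot settle whether the numbers pair libraries. With the library number as a replicate block, 21, 17 and 20 genes were called. Of all 12769 tested genes, 9163, 8742 and 8740 were called with that block.

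Every sum moved by more than its SD when the 10 highest genes were removed. With median-ratio scaling only the MMP sums of both escape lines and the TIMP and ADAMTS sums of escape e2 did. Removing the 10 highest genes and rescaling gave MMP sums of 200.9 TPM in escape e2, 123 TPM in escape e1 and 79.8 TPM in parental cells, TIMP sums of 876, 809 and 328 TPM and ADAMTS sums of 46.9, 23.3 and 18.1 TPM. Median-ratio scaling gave MMP sums of 162 and 109 TPM in escape e2 and escape e1, a TIMP sum of 706 TPM in escape e2 and an ADAMTS sum of 37.8 TPM in escape e2. The TIMP sum was then 722 TPM in escape e1, a move within its SD, and the order of the escape lines turned over for TIMPs. The order of the groups was kept for MMP and ADAMTS sums under both scalings and for TIMP sums without the 10 highest genes. Leaving out 1 library gave MMP sums of 169.9 to 171 TPM in escape e2, 106.9 to 108 TPM in escape e1 and 68.5 to 70.7 TPM in parental cells. TIMP sums were then 737 to 747, 698 to 719 and 279.9 to 299 TPM, and ADAMTS sums 39.5 to 40.1, 19.3 to 21.0 and 15.1 to 16.2 TPM. The median over all tested genes shifted to 0.11 in escape e2 against parental cells and 0.14 between the lines when the 10 highest genes were removed, against 0.07 and 0.09. It was -0.02 and 0.02 with median-ratio scaling and -0.01 and 0.02 with the rlog table. The share of higher calls among all calls ran from 49.0 to 58.4% in escape e2 against parental cells over the alternatives. Depth is unknown, so values below 1 TPM carry no stated precision.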

Other observations

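Adamts1 and Adamts5 are neighbours on chromosome 16, with 55 kb between them. Both were lower in escape e2 than in escape e1, Adamts1 by -1.52 ± 0.12 and Adamts5 by -0.53 ± 0.08. Against parental cells, Adamts1 was lower in escape e2 (-1.50 ± 0.12) and not called in escape e1, whereas Adamts5 was higher in escape e1 (0.56 ± 0.08) and not called in escape e2. Adamts15 and Adamts8 lie 20.1 kb apart on chromosome 9, and Adamts8 stood at 0.180, 0.0658 and 0.211 TPM in escape e2, at 0.0120, 0 and 0 TPM in escape e1, and at 0.0136, 0.0128 and 0.0487 TPM in parental cells. Mep1a, the alpha subunit of the epithelial metalloprotease meprin, did not exceed 0.186 TPM in escape e2 and 0.0801 TPM in escape e1, and stood at 2.35, 1.74 and 2.22 TPM in parental cells. Tll1, a relative of Bmp1, averaged 1.31 TPM in escape e2, 0.193 TPM in escape e1 and 0.112 TPM in parental cells.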
